A study of Mus musculus with 4 samples.

Results

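The platelet program was followed here through 9 genes, Vwf, Selp, Itga2b, Itgb3, Pf4, Gp9, Gp5, Gp1bb and Treml1, taken by gene symbol from the 28692 genes counted in every pool. Each symbol matched 1 gene, and all 9 passed the filter on low counts. Hematopoietic stem and progenitor cells (HSPCs) had been sorted from the bone marrow of male C57BL/6-CD45.2 mice as lineage-negative, Sca1+, cKit+ and Flt3- cells, and single-cell 3′ RNA libraries had been made from 2 pools of young mice (2 to 3 months) and 2 pools of aged mice (17 to 18 months). Young pool A (2 mice) and aged pool A (3 mice) were captured at the HalioDX facility, and young pool B (3 mice) and aged pool B (2 mice) at the TGML facility. The labels name no transgene and no treatment. The mice of a pool were mixed before capture, so the pool was the replicate and the mouse could not be followed.

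The pools held 5189, 2244, 3328 and 4154 cells (young A, young B, aged A and aged B) after the limit on transcript counts per cell, with medians of 6075, 6284, 5674 and 6719 unique molecular identifiers (UMIs, 1 for each captured transcript). Any 2 pools shared 8 to 26 cell barcodes. No doublet caller was run, and the limit on UMIs per cell was the only guard against doublets. Fewer cells with a transcript and less of it per cell cannot be told apart in a pool level. For young pool B and for aged pool A the free-text description named the other age, and the sample titles and source names, which did not differ from each other on age, were used for the groups. Each facility captured 1 young and 1 aged pool, so every change with age was fitted with the platform (facility) as a block. By the study's methods, young A and aged B were sequenced to fewer reads per cell than young B and aged A. Read depth thus differed between the ages within each facility, in opposite directions, which the block does not cover. The cells carried stem cell genes as their label says: the summed level of 10 stem cell genes (Procr, Slamf1, Hlf and others) was 750 and 788 CPM (a gene's UMIs relative to all UMIs of the same pool or class, brought to 1 common total) in the young pools and 1487 and 1368 in the aged pools. A list of 6 progenitor genes (Cd34, Cd48, Flt3 and others) stood in the opposite order, at 1450 and 1315 CPM in the young pools and 546 and 321 in the aged pools.

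Platelets are shed by megakaryocytes, and megakaryocytes arise from HSPCs partly by way of stem cells that already transcribe platelet genes. The 9 genes cover the steps by which a platelet stops bleeding. Vwf encodes von Willebrand factor, the plasma and granule protein that tethers platelets to a wounded vessel wall, and Gp1bb, Gp9 and Gp5 encode subunits of GPIb-IX-V, the platelet receptor that binds it. Itga2b and Itgb3 encode the subunits of integrin αIIbβ3, the fibrinogen receptor that links platelets to each other. Selp encodes P-selectin, an adhesion receptor that is stored in granules, Pf4 encodes platelet factor 4, a chemokine of the alpha granule, and Treml1 encodes a granule receptor that appears on activated platelets. Vwf and Selp are also made by endothelial cells, and Itga2b (CD41) also marks early hematopoietic progenitors.

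Promoter sequence was available from RefSeq (GRCm38.p6) for 7 of the 9 genes, and the 250 bases before the start site of 4 of them are shown: Selp as the gene with the largest change with age, Pf4 as the one most concentrated in megakaryocyte-primed cells, and Gp5 and Gp1bb as the members with GATA motifs and the largest gaps between platforms. Capitals mark motifs of 3 factor families of megakaryocytes searched on both strands: GATA (spelled AGATAA or else TGATAA or else AGATAG or else TGATAG), ETS (spelled CCGGAA or else AGGAAG) and RUNX (spelled TGTGGT or else TGCGGT). A motif on the other strand is written as its reverse complement.
Selp (chr1:164115014-164115263, plus strand): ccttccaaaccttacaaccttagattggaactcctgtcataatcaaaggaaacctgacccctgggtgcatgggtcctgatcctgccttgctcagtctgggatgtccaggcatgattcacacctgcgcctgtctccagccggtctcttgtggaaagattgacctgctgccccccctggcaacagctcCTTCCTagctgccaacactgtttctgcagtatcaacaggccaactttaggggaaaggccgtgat
Pf4 (chr5:90772185-90772434, plus strand): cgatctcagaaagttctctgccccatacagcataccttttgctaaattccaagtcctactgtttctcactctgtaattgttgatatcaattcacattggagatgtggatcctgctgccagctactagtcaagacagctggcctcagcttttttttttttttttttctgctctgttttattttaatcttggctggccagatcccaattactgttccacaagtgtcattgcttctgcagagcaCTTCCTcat
Gp5 (chr16:30310782-30311031, minus strand): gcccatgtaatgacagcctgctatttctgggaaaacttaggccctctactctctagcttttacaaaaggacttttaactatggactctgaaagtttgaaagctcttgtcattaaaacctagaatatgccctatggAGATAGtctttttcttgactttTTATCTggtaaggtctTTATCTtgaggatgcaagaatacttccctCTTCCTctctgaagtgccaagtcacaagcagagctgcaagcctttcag
Gp1bb (chr16:18622404-18622653, minus strand): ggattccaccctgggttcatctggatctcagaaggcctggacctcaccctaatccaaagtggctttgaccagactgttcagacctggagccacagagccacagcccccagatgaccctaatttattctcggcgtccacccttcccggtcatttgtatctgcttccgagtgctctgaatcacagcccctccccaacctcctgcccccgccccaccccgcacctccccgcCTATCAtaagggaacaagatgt

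A GATA motif stood in 2 of the 7 promoters, an ETS motif in 5 and a RUNX motif in 1. Of 32851 RefSeq promoters of the same length, 26.5% held a GATA motif, 38.2% an ETS motif and 18.6% a RUNX motif. Gp5 held 3 GATA motifs, 115, 93 and 77 bases before the start, and 1 ETS motif at 48 bases, whereas Gp1bb held 1 GATA motif at 22 bases. Selp and Pf4 each held 1 ETS motif, at 64 and 9 bases. Gp9 held an ETS motif at 16 bases and a RUNX motif at 171 bases, Itga2b held ETS motifs at 125 and 43 bases, and the Treml1 window held none of these letters. Vwf and Itgb3 were not analysed for motifs.

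Vwf, Selp and Itgb3 rose with age and the other 6 genes did not pass the test. The fitted rises were 7.02-fold for Vwf, 18.9-fold for Selp and 5.58-fold for Itgb3. The young level of Selp (3.70 and 6.04 CPM) was no higher than in young neutrophil-primed cells (4.735 and 11.9 CPM). In the small groups of mast cell-primed and lymphoid-primed cells it was 0 CPM in both young pools. How much of the young level is background was not measured, so the fold of Selp rests on a low level of unknown source. The partners of Vwf and Itgb3 among the 9 genes did not follow at the same scale. Itga2b, which forms the integrin with Itgb3, and the receptor genes Gp1bb, Gp9 and Gp5 had fitted changes of at most 1.82-fold. The 3 called genes compare with 1.6% of 13555 tested genes called higher in the aged pools (edgeR's quasi-likelihood fit, p adjusted by Benjamini-Hochberg and under 0.05, n = 4 pools), and no member was among the 0.428% called lower. The 9 genes were chosen with earlier results of these data known, so their count beside these shares is a description. The median log2 fold change was 0.70 over the 9 genes and 0.01 over all tested genes.

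**Figure D1:**
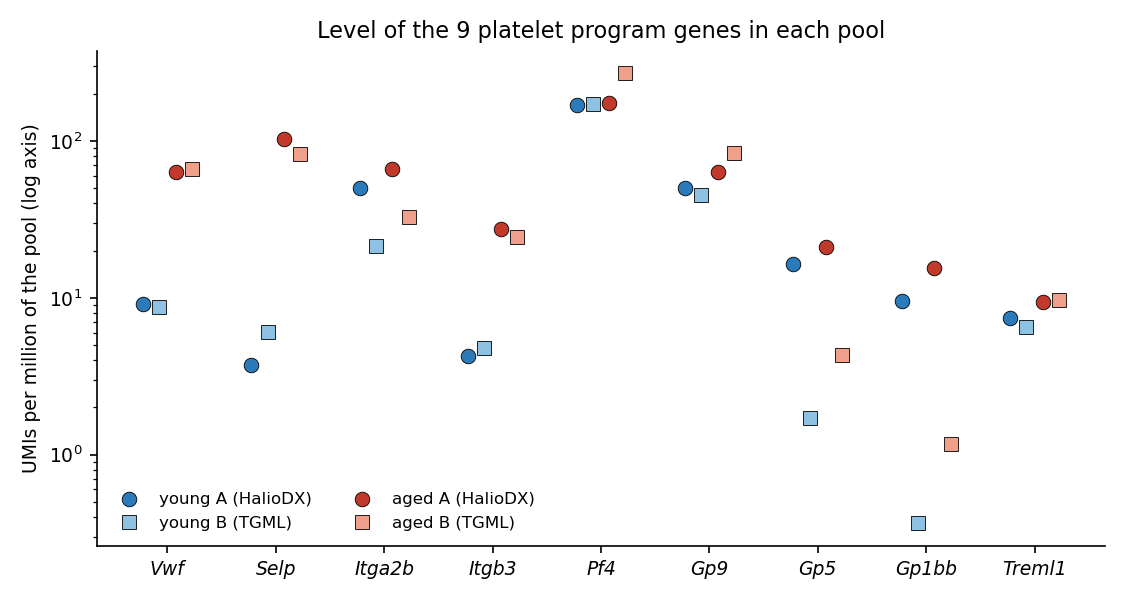
Level of the 9 genes in each pool, in CPM (log axis). Circles are the HalioDX pools, squares the TGML pools, blue the young and red the aged pools, 1 point per pool. Vwf, Selp and Itgb3 stand apart by age, Gp5 and Gp1bb by platform.

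Among the adhesive proteins, Vwf (ENSMUSG00000001930, chromosome 6 from 125546774 to 125686679, plus strand) was at 9.11 and 8.72 CPM in young pool A and young pool B and at 63.4 and 66.6 in aged pool A and aged pool B. The pools of 1 age nearly coincided and the ages lay far apart. The log2 fold change was 2.81 (SE 0.179, adjusted p = 0.00999, edgeR), or 2.67 within platform A and 2.80 within platform B. Selp (ENSMUSG00000026580, chromosome 1 from 164115264 to 164150026, plus strand) was at 3.70 and 6.04 CPM in the young pools and at 102.3 and 83.0 in the aged pools, again without overlap. Its log2 fold change of 4.24 (SE 0.278, adjusted p = 0.0112, edgeR) was the largest of the 9 genes. It ranked 59 among all tested genes, counted from the largest rise.

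Because both genes are also endothelial, endothelial markers were set beside them. The 13 listed genes were at very different levels. Cdh5 (13, 0, 1 and 0 UMIs in young A, young B, aged A and aged B), Lyve1 (1, 0, 0 and 1), Ptprb (3, 0, 4 and 1) and Flt1 (7, 3, 9 and 2) were near 0. Stab2 counted 30, 15, 10 and 3 UMIs and Plvap 50, 0, 32 and 29. Esam was at 67.4 and 79.3 CPM in young and 144 and 145.5 in aged pools. Egfl7 was at 165 and 139 CPM in young and 139 and 139 in aged pools. Emcn was at 39.8 and 37.5 CPM in young and 33.2 and 21.0 in aged pools. Pecam1 was at 36.7 and 23.35 CPM in young and 46.2 and 12.6 in aged pools. Kdr was at 3.21 and 1.34 CPM in young and 6.78 and 5.11 in aged pools. Tek was at 8.59 and 4.82 CPM in young and 15.7 and 6.37 in aged pools. The summed level of the 13 listed endothelial genes was 327 and 290 CPM in the young pools and 487 and 473 in the aged pools, and 1 of the 9 that could be tested, Cldn5, was called higher. Cldn5 was at 3.92 and 3.60 CPM in the young pools and at 99.0 and 142 in the aged pools. The listed genes did not move together with age. Cldn5, Esam and Kdr had both aged pools above both young pools, and Emcn and Stab2 had both below. Of 7 listed platelet genes, Tubb1 (3, 0, 1 and 1 UMIs), Gp6 (1, 0, 1 and 0) and Myl9 (5, 0, 0 and 1) were near 0, while Ppbp counted 307, 89, 119 and 151 UMIs and Clec1b 68, 17, 100 and 178. The summed level of the 7 genes was 12.5 and 8.66 CPM in the young pools and 16.3 and 16.8 in the aged pools, and 1 of the 4 that could be tested, Alox12, was called higher. The part of these genes' sources in the Vwf and Selp results was not tested.

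The integrin subunits differed from each other. Itgb3 (ENSMUSG00000020689, chromosome 11 from 104608000 to 104670476, plus strand) was at 4.23 and 4.76 CPM in the young pools and at 27.5 and 24.4 in the aged pools, with no overlap and a log2 fold change of 2.48 (SE 0.192, adjusted p = 0.0140, edgeR). Itga2b (ENSMUSG00000034664, chromosome 11 from 102453297 to 102470122, minus strand) was at 50.4 and 21.5 in the young pools and at 66.2 and 32.7 in the aged pools. The aged pool was the higher one on each platform, but young pool A lay above aged pool B, and the log2 fold change of 0.45 (SE 0.174) did not pass (adjusted p = 0.310, edgeR).

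For the granule chemokine Pf4 (ENSMUSG00000029373, chromosome 5 from 90772435 to 90773383, plus strand), the levels were 168 and 173 CPM in the young pools and 174 and 269.9 in the aged pools. Only aged pool B stood apart, and the log2 fold change of 0.29 (SE 0.245) did not pass (adjusted p = 0.660, edgeR). Treml1 (ENSMUSG00000023993, chromosome 17 from 48359916 to 48367176, plus strand) was at 7.44 and 6.52 in the young pools and 9.33 and 9.67 in the aged pools, a log2 fold change of 0.39 (SE 0.200, adjusted p = 0.446, edgeR).

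None of the GPIb-IX-V genes passed. Gp9 (ENSMUSG00000030054, chromosome 6 from 87778072 to 87779768, plus strand) was at 50.1 and 44.9 CPM in the young pools and at 63.1 and 84.2 in the aged pools, with a log2 fold change of 0.57 (SE 0.225, adjusted p = 0.321, edgeR). Gp5 (ENSMUSG00000047953, chromosome 16 from 30307685 to 30310779, minus strand) was at 16.4 and 1.71 in the young pools and at 21.0 and 4.33 in the aged pools, and Gp1bb (ENSMUSG00000050761, chromosome 16 from 18620317 to 18622403, minus strand) at 9.60 and 0.366 in the young pools and at 15.4 and 1.17 in the aged pools. Their log2 fold changes were 0.70 (SE 0.311, adjusted p = 0.376, edgeR) and 0.86 (SE 0.315, adjusted p = 0.285, edgeR). Both were higher in the aged pool of each platform, and the ages overlapped across platforms. Without young pool A no block can be held, and young pool B of TGML stood alone against an aged pool of each platform. The log2 fold changes were then 2.58 for Gp5 and 4.135 for Gp1bb, and without aged pool A both had values below 0. In such fits age cannot be told apart from the gap between platforms, which was large for these genes.

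**Figure D2:**
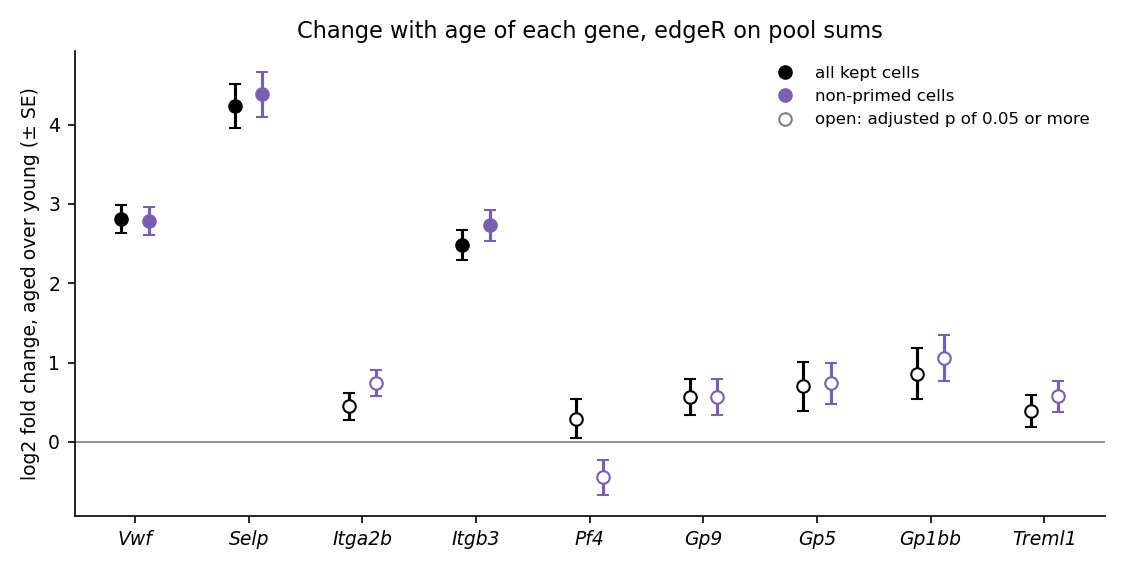
Log2 fold change of aged over young pools from edgeR with platform as a block, with its SE, over all kept cells (black) and over non-primed cells (purple). Filled points have an adjusted p under 0.05: Vwf, Selp and Itgb3 lie between 2.48 and 4.38 and the open points between -0.44 and 1.05.

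In all, 6 of the 9 genes (Vwf, Selp, Itgb3, Pf4, Gp9 and Treml1) had both aged pools above both young pools, a pattern that 18.1% of tested genes showed, and none had both below (13.6% of tested genes). For Pf4 the margin was small, with 173.8 CPM in aged pool A against 172.6 in young pool B. With every barcode counted the Pf4 level was 166 CPM in aged pool A and 216 in young pool B, and the ages overlapped. The 3 calls rested on both aged pools. Without aged pool A or without aged pool B, in fits that cannot hold the block and assume that the lone pool varies as the others do, Vwf, Selp and Itgb3 kept log2 fold changes of 2.39 to 4.19 but had adjusted p of 0.111 to 0.362 (edgeR). Fitted without the platform block, the 3 genes kept log2 fold changes of 2.47 to 4.18 with adjusted p of 0.113 to 0.117 (edgeR, all 3 under 0.05 unadjusted), and DESeq2 with the block called the same 3 genes.

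For Gp1bb and Gp5 the levels differed more between platforms than between ages. Gp1bb was 26.3-fold higher in young pool A than in young pool B and 13.1-fold higher in aged pool A than in aged pool B, and Gp5 was 9.58-fold and 4.85-fold higher. The other 7 genes differed between platforms by at most 2.35-fold. A gap of more than 4-fold in favour of platform A at both ages was present in 2.16% of tested genes, and the reverse gap in 0.0516%. Counts were low on the TGML side, with 6 and 39 Gp1bb UMIs and 28 and 144 Gp5 UMIs in the young and aged pool, against 350 and 320 Gp1bb UMIs and 596 and 436 Gp5 UMIs on the HalioDX side. The reading of Gp1bb is uncertain in another way, since it overlaps Sept5 on the same strand. How reads in the overlap were counted was not examined. Sept5 itself counted 4, 2, 17 and 21 UMIs in young A, young B, aged A and aged B. The facility and the mice captured there cannot be told apart in this gap.

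Which cells held the transcripts was read from clusters built without the 9 genes. With 13 clusters, 1 cluster (pEr-like, 791 cells) met both the erythroid-primed and the megakaryocyte-primed marker list, and a separate megakaryocyte-primed (pMk-like) cluster of 334 cells appeared in a finer clustering of 15 clusters, named from F2rl2, Serpine2, Tuba8 and other markers fixed apart from the 9 genes. These cells made up 2.68%, 2.05%, 1.71% and 2.215% of young A, young B, aged A and aged B. Their median of 9162.5 UMIs was above that of the 12853 non-primed cells (6044), that is, the cells in clusters that no lineage list names.

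The 9 genes split by where their UMIs lay. The pMk-like cells were 2.24% of kept cells and held 3.09% of the UMIs of kept cells. Of each gene's UMIs in kept cells, they held 59.5% for Pf4, 41.8% for Gp1bb, 29.1% for Treml1, 21.2% for Gp5 and 19.65% for Itga2b. For Gp9 the share was 9.09%, for Itgb3 4.89%, for Vwf 4.66% and for Selp 1.97%. Vwf, Selp and Itgb3, the 3 genes called with age, had 90.3% to 94.5% of their UMIs in non-primed cells, which held 83.4% of all UMIs. These shares are summed over the pools, and most UMIs of the 3 genes came from aged pools. Itgb3, for one, counted 154 and 78 UMIs in the young and 572 and 811 in the aged pools. In the young pools the levels of Itgb3 (4.41-fold and 4.02-fold) and Vwf (1.74-fold and 3.45-fold) were higher in pMk-like than in non-primed cells. Since clusters were made from the same cells, these levels are a description and were not tested.

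**Figure D3:**
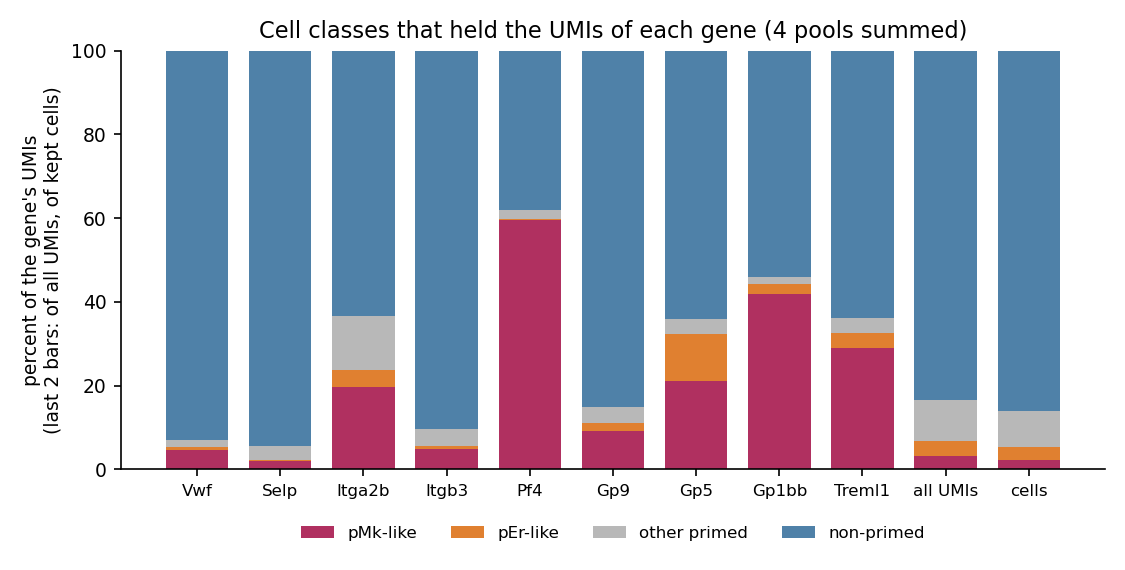
Share of each gene's UMIs, in percent, found in pMk-like, pEr-like, other primed and non-primed cells of the finer clustering, 4 pools summed. The last bars give the same split of all UMIs and of kept cells. The pMk-like share runs from 1.97% for Selp to 59.5% for Pf4.

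Within each pool, the level in pMk-like cells was 16.6-fold to 80.4-fold the level in non-primed cells for Pf4, 12.7-fold to 23.7-fold for Gp1bb, 11.9-fold to 16.5-fold for Treml1, 6.26-fold to 9.94-fold for Itga2b, 6.06-fold to 9.69-fold for Gp5 and 2.37-fold to 3.79-fold for Gp9. The Gp1bb ratio of young pool B rests on 6 UMIs in the whole pool. For Vwf the ratio was 1.30-fold to 3.45-fold. For Selp it was 1.96-fold and 1.39-fold in the young pools but 0.326-fold and 0.811-fold in the aged pools, and for Itgb3 it was 4.41-fold and 4.02-fold in the young pools and 0.804-fold and 1.47-fold in the aged pools. In pEr-like cells of the finer clustering, Pf4 had a mean of 18.9 CPM (90.1 in non-primed cells) and Gp5 28.5 (8.57 in non-primed cells). Itga2b was not particular to pMk-like cells, where its mean was 287 CPM. Among the 13 clusters its mean was highest in the mast cell-primed cluster (156 CPM, 199 cells), which also met the megakaryocyte-primed list. The pEr-like cluster, which met the erythroid-primed and the megakaryocyte-primed list, followed at 149.5 CPM.

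Whether the age effect differed between pMk-like and non-primed cells was tested as a class by age term in edgeR with each pool as a block, in the finer clustering only. Pf4 in pMk-like cells was at 1936 and 3168 CPM in the young pools and at 4757 and 6473 in the aged pools, whereas in non-primed cells it was at 116 and 89.3 in the young pools and at 74.3 and 80.5 in the aged pools. The ages did not overlap in either class and stood in opposite order. The log2 difference of the age effect was 1.56 (SE 0.122, adjusted p = 1.63e-33, edgeR), but DESeq2 gave an SE of 0.549 and did not call it (adjusted p = 0.370, with 0.0802% of genes called). Itgb3 was higher in the aged pools in both classes, with the larger fold in non-primed cells. There it went from 3.72 and 4.41 in young to 30.0 and 25.2 in aged cells. In pMk-like cells, with 79 Itgb3 UMIs over all pools, it went from 16.4 and 17.7 to 24.2 and 37.1. Its log2 difference was -1.88 (SE 0.435, adjusted p = 0.00593, edgeR), and DESeq2 gave -1.91 with an unadjusted p of 0.00156 and no adjusted p. The 2 calls compare with 0.536% of 12314 tested genes, and none of the other 7 genes passed (Selp had a log2 difference of -1.58, adjusted p = 0.183, edgeR).

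**Figure D4:**
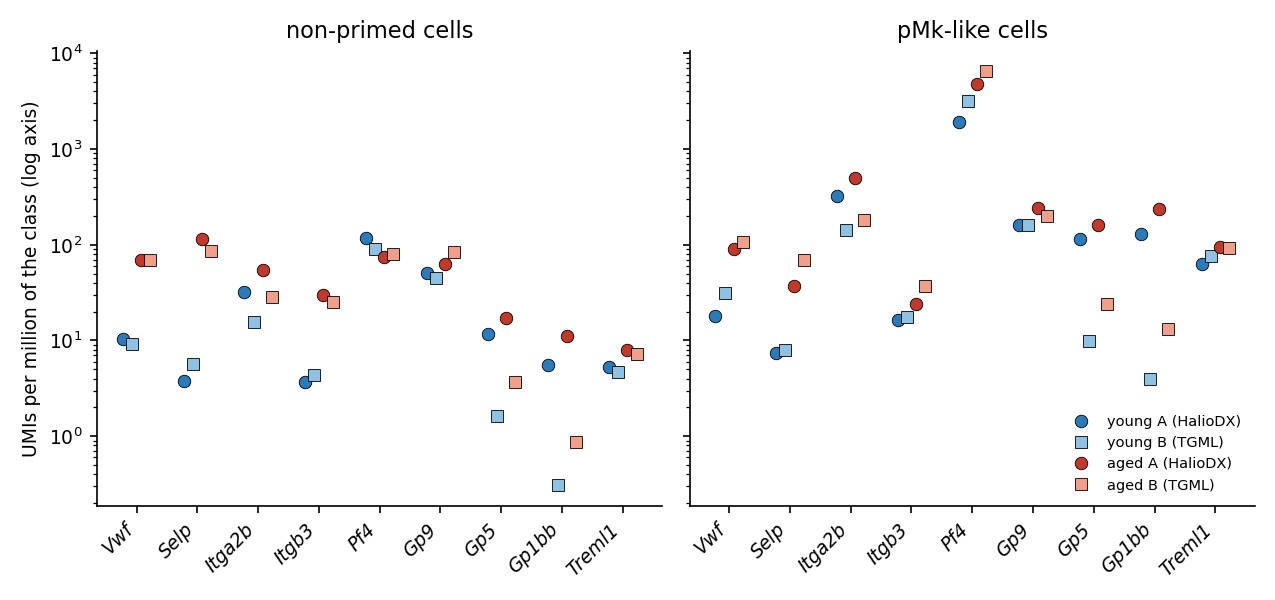
Level of the 9 genes in non-primed cells (left) and pMk-like cells (right) of each pool, in CPM of that class and pool (log axis, 1 point per pool). Pf4 is higher in aged pMk-like cells (4757 and 6473) than in young ones (1936 and 3168) and lower in aged than in young non-primed cells.

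The upper limit on UMIs per cell removed 242, 93, 139 and 166 deep barcodes from young A, young B, aged A and aged B. In young pool A these barcodes held 13.7% of all UMIs but 47.9% of the Pf4 UMIs and 42.15% of the Gp1bb UMIs, and 1 of them held 571 Pf4 UMIs. The Pf4 share was 30.1% for young B, 8.18% for aged A and 16.5% for aged B, where deep barcodes held 10.95% to 12.5% of all UMIs. With every barcode counted, Pf4 was at 279 and 216 CPM in the young pools and 166 and 288 in the aged pools, and its log2 fold change turned to -0.22 (adjusted p = 0.817, edgeR). The part of these barcodes in the class by age result was not tested.

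In non-primed cells alone (12840 of 14915 cells in the clustering with 13 clusters), the same 3 genes rose with age: Vwf by a log2 fold change of 2.78 (SE 0.179, adjusted p = 0.0265, edgeR), Selp by 4.38 (SE 0.285, adjusted p = 0.0265, edgeR) and Itgb3 by 2.73 (SE 0.196, adjusted p = 0.0292, edgeR), against 0.859% of 13269 genes called higher and 0.203% called lower. Pf4 had a log2 fold change of -0.44 there (SE 0.219, adjusted p = 0.448, edgeR), and its levels of 116 and 89.2 in the young pools and 74.1 and 80.5 in the aged pools did not overlap. Itga2b was at 32.5 and 15.9 in young and 54.2 and 28.7 in aged non-primed cells (log2 fold change 0.75, SE 0.162, adjusted p = 0.144, edgeR). These 3 calls too were lost without aged pool A or aged pool B, when no member was called by edgeR, and without the platform block.

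Tested cluster by cluster, the Selp rise was called in 9 of 11 clusters (log2 fold changes of 3.035 to 4.99) and the Vwf rise in 8 of 11 (2.06 to 3.30), while Itgb3 was called in 5 of 9 (2.69 to 4.07). Across the 12 clusters with a fit, the share of all tested genes called higher was 1.64% in cluster 0, 1.29% in cluster 1, 0.193% in cluster 2, 1.06% in cluster 3, 0.729% in cluster 8, 1.61% in tgf-like, 0.706% in ifn-like (interferon response), 0.572% in div-like (dividing), 0.24% in pEr-like, 0.105% in pNeu-like and 0% in pMast-like and pL1-like cells. Selp and Vwf did not pass in the pNeu-like cluster of neutrophil-primed cells (Selp log2 fold change 2.30, adjusted p = 0.125, and Vwf 2.02, adjusted p = 0.699, edgeR) or in the small pL1-like cluster of lymphoid-primed cells. Gp9, Gp5, Gp1bb and Treml1 were called in none of the 6 to 10 clusters where each could be tested, with edgeR. Itga2b was called in cluster 0 alone, the largest cluster (3626 cells), which met the stem cell list (log2 fold change 1.12, adjusted p = 0.0486, edgeR). Pf4 was called higher in cluster 8, which met the replication and division lists (1.52, adjusted p = 0.0390, edgeR), and lower in the tgf-like cluster of cells with Fos, Egr1 and related genes (-1.28, adjusted p = 0.0106, edgeR), where young pool B had 14 cells and 0.452% of genes were called lower.

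Among the 13 clusters, cluster 0 had the highest mean level of Vwf, with 22.2 and 21.6 CPM in the young pools and 102.5 and 82.3 in the aged pools (mean 57.2). The pMk-like cells of the finer clustering had a mean of 61.4 CPM, and their values of 17.9, 31.5, 90.0 and 106 overlapped those of cluster 0. The lowest Vwf level among clusters with more than 100 cells was in the pNeu-like cluster, with 1.58 and 3.57 in the young pools and 11.8 and 7.68 in the aged pools. Selp was highest in the tgf-like cluster, with 10.9 and 0 in the young pools and 139 and 117 in the aged pools, and cluster 0 overlapped it (2.77, 4.97, 132 and 103). The tgf-like cluster held 548 cells of aged pool A and 14 to 170 cells of the other pools, and the summed level of its 10 listed genes was 2979 CPM in aged pool A and 282 to 706 elsewhere. With every cluster given the same share of cells in each pool, the log2 difference of Selp was 3.99 and that of Itgb3 2.32, against 4.02 and 2.29 with the pools' own shares, and that of Vwf was 2.50 against 2.735.

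For Vwf, Selp and Itgb3 the ages lay further apart in the share of cells with a UMI than in the UMIs of each such cell. To compare pools at 1 depth, each cell was thinned at random to 3000 UMIs, which left out 230 cells. Of thinned cells, 2.62% (exact binomial 95% interval 2.203% to 3.09%) and 2.46% (1.85% to 3.20%) had a Vwf UMI in young pool A and young pool B, and 16.15% (14.9% to 17.5%) and 16.7% (15.6% to 17.9%) in aged pool A and aged pool B. For Selp the shares were 0.983% and 1.69% in young and 24.3% and 20.6% in the aged pools, and for Itgb3 1.21% and 1.46% in young and 7.995% and 7.30% in the aged pools. The intervals cover counting error only. Without thinning, 5.55% and 5.48% of young cells and 28.5% and 36.6% of aged cells had a Vwf UMI.

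The mean share with a UMI was thus 6.46-fold higher in the aged pools for Vwf, 16.8-fold for Selp and 5.72-fold for Itgb3, while the UMIs per thinned cell with any were 1.10-fold, 1.21-fold and 1.04-fold. In thinned cells most positive cells have exactly 1 UMI, so this second measure has little room to move. In pNeu-like cells, set beside the whole pools, 0.455% and 1.04% of young and 4.70% and 3.15% of aged thinned cells had a Vwf UMI. For Selp the shares there were 1.36% and 3.11% in young and 8.05% and 10.2% in aged cells. The young shares of Selp over whole pools thus lay at or below those of pNeu-like cells. In pEr-like cells of the finer clustering, 0% and 0% of young and 1.98% and 0% of aged thinned cells had a Selp UMI. How much of the young Selp share is background was not measured, so the 16.8-fold rests on a low share of unknown source. The aged Selp shares over whole pools (24.3% and 20.6%) were above the aged pNeu-like shares. Median depth was 7489 UMIs in pNeu-like cells.

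Pf4 had the opposite order. Its share of thinned cells was 22.3% and 18.7% in the young pools and 16.5% and 15.6% in the aged pools, with no overlap, while the UMIs per cell with any had a mean of 2.17 in young and 3.17 in the aged pools. An exact permutation test of 2 pools against 2 cannot go below p = 0.333, the value it gave here, and both statements are therefore descriptions. In pNeu-like cells 9.32% to 16.1% of thinned cells had a Pf4 UMI. The top 1% of cells held 41.6% and 56.1% of the Pf4 UMIs in young pool A and young pool B and 59.3% and 66.7% in the aged pools, against 7.32% to 9.94% for Selp and Vwf in the aged pools. The most in any 1 kept cell was 502 Pf4 UMIs, in aged pool B. Gp9 was found in 12.9% and 10.8% of young and 16.15% and 20.8% of aged thinned cells, and Treml1 in 1.37% and 1.23% of young and 2.70% and 2.31% of aged thinned cells.

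Over the 9 genes, 43.7% and 34.9% of thinned young cells had at least 1 of them and 66.2% and 61.5% of thinned aged cells. At least 3 of them were found in 2.54% and 0.729% of young cells and in 9.55% and 6.07% of aged cells. No cell had more than 7 of the 9. Cells with all 3 GPIb-IX-V genes were rare, with 6, 0, 7 and 1 cells in young A, young B, aged A and aged B. At least 3 of the 5 genes Pf4, Gp9, Gp5, Gp1bb and Treml1 were found in 43, 4, 45 and 17 cells. Of those cells, 2, 1, 12 and 3 also had a Vwf UMI, and in cells with none of the 5 the Vwf share was 2.585%, 2.33%, 16.2% and 16.4%.

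Genes found in the same thinned cells were compared within each pool, as the share of cells with one gene among cells with another gene over the share among cells without it. For Pf4 and Treml1 this ratio was 1.67, 2.55, 2.24 and 2.47 in young A, young B, aged A and aged B, and for Pf4 and Itga2b 1.497, 1.16, 1.48 and 1.96. Pf4 and Gp9 were likewise above 1 in every pool (1.24 to 1.55). Vwf and Itgb3 had ratios above 1 in every pool as well, at 4.64, 1.28, 1.42 and 1.31, but the young ratios rest on as few as 1 cell. Vwf and Selp had ratios of 0.743, 2.27, 1.43 and 1.21, above 1 in 3 of 4 pools. Pf4 with Vwf stayed below 1 in all 4 pools (0.849 to 0.986). The ratios are descriptions, since deep and shallow cells had been brought to 1 depth but cells of several clusters were mixed.

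**Figure D5:**
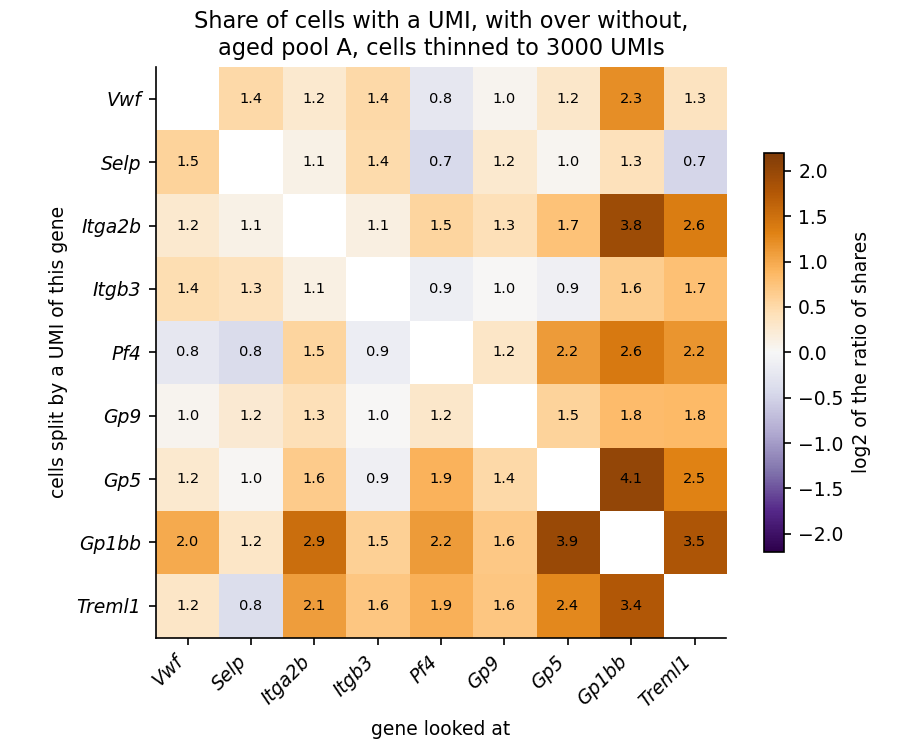
Ratio of the share of thinned cells with the column gene among cells with the row gene to the share among cells without it, in aged pool A. Ratios above 1 mark pairs found together more often, such as Pf4 with Treml1 (2.24), and ratios below 1 the reverse, such as Pf4 with Vwf (0.849).

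Summed over the cells of each pool and tested with edgeR with the pool as a block, cells with a Vwf UMI (1392 thinned cells) had higher levels of 5 of the 8 other genes than cells without, against 0.618% of 11809 tested genes called higher. These were Pf4 (log2 fold change 1.12, SE 0.0675, adjusted p = 9.86e-59), Gp1bb (1.31, adjusted p = 7.41e-04), Itgb3 (0.54, adjusted p = 0.0350), Selp (0.36, adjusted p = 0.0191) and Itga2b (0.41, adjusted p = 0.0460). Pf4 was at 387 CPM in cells with a Vwf UMI against 144 in cells without in young pool A, and the pairs were 698 against 131 in young B, 299 against 127 in aged A and 244 against 171 in aged B. Itgb3 and Itga2b were also higher in every pool. Gp1bb was higher in young A (12.3 against 6.80) and aged A (30.1 against 10.7) but lower in young B (0 against 0.156) and aged B (0.481 against 0.675). Selp was lower in young A (2.45 against 3.36) and higher in the other pools. The share of cells with a Pf4 UMI was no higher among cells with a Vwf UMI, as the ratios below 1 show. Among non-primed cells alone, none of the 8 genes was called by edgeR (4 had an unadjusted p under 0.05, Selp, Itgb3 and Gp1bb with values above 0 and Pf4 below), and Pf4 had a log2 fold change of -0.37 (adjusted p = 0.0886, edgeR). DESeq2 called Pf4, with an SE of 0.357, and gave the others no adjusted p, so they were not held to the threshold. Its unadjusted p was under 0.05 for Gp1bb (0.0227) and Itgb3 (0.0347) and above it for the rest, with Selp at 0.0704 and Itga2b at 0.0761. Without aged pool A 1 gene was called and without aged pool B 2 genes, and without the pool block edgeR called none.

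Cells with a Pf4 UMI (2733 thinned cells) had higher levels of 5 of the 8 other genes, against 0.205% of 11679 tested genes called higher. The 5 were the receptor genes Gp1bb (log2 fold change 1.82, adjusted p = 6.95e-06), Gp5 (0.89, adjusted p = 0.0205) and Gp9 (0.54, adjusted p = 1.10e-04), with Treml1 (1.34, adjusted p = 1.10e-04) and Itga2b (0.97, adjusted p = 2.36e-07), all by edgeR. Gp9, Treml1 and Itga2b were higher in every pool. Gp1bb was not higher in young B (0 against 0.187 CPM), nor Gp5 in aged B (3.10 against 3.52). Vwf (-0.11, adjusted p = 0.979), Selp (-0.21, adjusted p = 0.795) and Itgb3 (0.06, adjusted p = 0.9999), the 3 genes called with age, did not pass. None was called by edgeR among non-primed cells alone, where 4 of the 8 had an unadjusted p under 0.05 (Itga2b at 0.35 and Gp9 at 0.26, but Vwf at -0.32 and Selp at -0.24), or without the pool block, and DESeq2 called 4.

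Other genes of the platelet pathway were followed through 4 lists, whose counts are set beside the 1.6% of all tested genes called higher and 0.428% called lower. These lists were chosen with earlier results of these data known, so their counts and medians are descriptions. Of the granule genes, 3 of 14 tested rose with age and none fell (median log2 fold change 0.38): Clu, which encodes the chaperone clusterin (4.36, adjusted p = 0.00563), Timp3, an inhibitor of matrix proteases (1.77, adjusted p = 0.0334), and Mmrn1, which encodes multimerin and was named after its values were seen (1.501, adjusted p = 0.0499). Of the signalling and cytoskeletal genes, 1 of 17 rose, Alox12, a platelet lipoxygenase (2.09, adjusted p = 0.0492), and nothing about the list is read from a single call. None of 14 tested receptor genes passed in edgeR (median 0.44, 4 at an unadjusted p under 0.05), nor any of 13 transcription factor genes (median 0.47, 4 at an unadjusted p under 0.05). The medians compare with 0.01 over all tested genes.

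Across the mean levels of the 13 clusters, Vwf followed Itgb3 (Pearson r = 0.86), Gp9 (0.822) and Selp (0.821) and not Itga2b (-0.049), while Pf4 followed Treml1 (0.93), Gp5 (0.917) and Gp1bb (0.903). Among genes outside the 9, Soga1 (0.973), Gm10419 (0.972), Tgfb1i1 (0.97), Clu (0.959) and Slamf1 (0.957) were most like Vwf, and Abcb4 (0.967), Slc14a1 (0.966), F2r (0.96), Samd14 (0.942) and Smim1 (0.933) most like Pf4. With 15 clusters, 3 of the 5 named for Vwf and 0 of the 5 for Pf4 stayed among the 5 most alike. The 13 points share libraries and depth, and these r values are descriptions.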

How the data were processed

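The 10x Genomics 3′ (v2) libraries had been aligned to GRCm38 (mm10) by the authors with Cell Ranger 2.2.0, per the labels and the study's methods, and the deposited values are counts of UMIs, not normalized, for each gene in each cell barcode. Barcodes more than 2 SD from their pool's mean log UMI count were left out, which kept 14915 of 15566. Cells were clustered in Seurat 5.3.0 (R 4.3.3) after integration of the pools, on 2000 variable genes without the 9 genes, with 15 components and resolution 0.5 (0.8 for finer clusters). Clusters were named when at least 3 markers of a list were met and at least 1 gene of that list was among the cluster's top 10 by fold. Where several lists qualified, the one with most markers met gave the name.

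Counts were summed per pool, cluster or class and tested with edgeR 4.0.16 (quasi-likelihood, TMM, low-count filter, Benjamini-Hochberg adjustment, threshold 0.05), with the platform, shared by pools A and by pools B in the labels, as a block. Deviations of pools of 1 platform correlated at 0.472, a value that 2 pairs share by construction. DESeq2 1.42.0, other normalization, filters, thinning and left-out pools were alternatives. The fits were also run on counts simulated with no platform effect and 1 spread for all genes. Changes were planted there in well-expressed genes only, so that run does not cover low genes such as Gp5 and Gp1bb. Totals were 16399999 to 36446168 UMIs per pool. The members and lists were chosen with earlier results of these data known. Motifs were searched in RefSeq promoters, and gene positions came from GENCODE vM21. With 2 pools a group, p-values rest on a spread between pools that the fits partly share among genes. In the class by age fit and beside Vwf, the edgeR p of each gene rests on a spread shared among genes. It does not measure the spread of that gene itself, and this includes the very small p of Pf4. DESeq2 gave Pf4 SEs of 0.549 and 0.357 in these fits, against 0.122 and 0.0675 by edgeR. For Itgb3 in the class by age fit the SE was 0.604 by DESeq2 and 0.435 by edgeR. Beside Vwf, DESeq2 gave SEs of 0.198 for Selp and 0.194 for Itga2b, against 0.0974 and 0.123 by edgeR. For Itgb3 and Gp1bb they were 0.368 and 0.497 there, against 0.158 and 0.288.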

Additional observations from a re-analysis of the deposited data

Results flagged for a closer look

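For 2 of the 9 genes the age effect differed between pMk-like and non-primed cells by a test of the difference itself (edgeR, class by age, adjusted p under 0.05). The log2 difference was 1.56 for Pf4 (adjusted p = 1.63e-33), whose aged pools were above the young pools in pMk-like cells and below them in non-primed cells. It was -1.88 for Itgb3 (adjusted p = 0.00593), whose age gap was larger in non-primed cells and which had 79 UMIs in pMk-like cells over all pools. DESeq2, an alternative chosen after seeing the data, gave 1.55 for Pf4 (adjusted p = 0.370). For Itgb3 it gave -1.91 (unadjusted p = 0.00156) and no adjusted p, so Itgb3 was not held to the threshold. Both edgeR p-values rest on a spread shared among genes, not on that of the gene itself.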

How the results depend on the processing

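The calls depended on the platform block. Without pairing the pools by platform (no replicate block), edgeR called 0 genes with age (1103 at an unadjusted p under 0.05), 0 of the 9 genes in whole pools or non-primed cells, and 0 of 8 genes beside Vwf or Pf4, with adjusted p of 0.113 for Vwf and Selp and 0.117 for Itgb3. Of all genes, DESeq2 called 523, a fit with no low-count filter 774, and one without the 5% of cells with most UMIs 563, against 275. Leaving out 1 pool gave 0 to 287 genes, 0 to 5 of the 9 genes in whole pools and 0 to 5 in non-primed cells. Those fits hold no block and set a lone pool of 1 age against a pool of each platform, so age and platform are mixed. Without young pool A the log2 fold changes were 2.58 for Gp5 and 4.135 for Gp1bb, the genes with the large gap between platforms.

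Some log2 fold changes below the threshold turned. Pf4 was at -0.22 with all barcodes and ran from -0.20 (without aged pool B) to 0.77 when 1 pool was left out. Itga2b ran from -0.041 (without young pool B) to 0.97. Gp5 was at -0.45 without young pool B and -0.89 without aged pool A, and Gp1bb at -0.33 and -1.92 likewise. The class by age test could be run in the finer clustering alone, and DESeq2 called 0 there, giving Itgb3 no adjusted p. Beside Vwf, DESeq2 called 1 gene and gave the others no adjusted p. Thinning to 2000 UMIs gave 1 call there, non-primed cells 0, and leaving out 1 pool 1 to 5. Beside Pf4, non-primed cells gave 0. Genes at a few UMIs per pool, such as Gp1bb at TGML, were not resolved at this depth.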

Other observations

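Among kept cells, pMk-like cells gave 71.3, 98.1, 104 and 194 of the pool's Pf4 CPM in young A, young B, aged A and aged B. All other kept cells gave 97.1, 74.5, 69.6 and 75.8. The pMk-like cells held 42.3%, 56.8%, 59.98% and 71.9% of the Pf4 UMIs of each pool's kept cells. The deep barcodes left out by the UMI limit are in neither part. They held 47.9%, 30.1%, 8.18% and 16.5% of all Pf4 UMIs of young A, young B, aged A and aged B. With every barcode counted, Pf4 was at 279 and 216 CPM in the young pools and 166 and 288 in the aged pools.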
